A study of Mus musculus with 5 samples.

Results

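The interferon response genes described here are 34 transcripts that type I interferons are known to induce, followed through single-cell RNA-seq libraries of sorted mouse γδ T cells. They were listed by name as interferon-induced genes, by a rule that uses no measured value, and the list was drawn up with earlier results of these data known. All 34 were found among the 27998 genes of the count tables. By role, they comprise 5 regulators (Irf1, Irf7, Irf9, Stat2 and Usp18), 4 nucleic acid sensors (Ifih1, Ddx58, Dhx58 and Zbp1), 5 effectors of the Isg15 and Ifit kind, 3 genes of the oligoadenylate synthetase (OAS) group, 10 other antiviral genes and 7 GTPases that are best known as interferon-γ targets. A shorter list of 12 strongly inducible genes within the 34 (Isg15, Ifit1, Ifit2, Ifit3, Irf7, Rtp4, Usp18, Oasl1, Oasl2, Zbp1, Xaf1 and Oas1a) is called the inducible core below.

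The study sorted γδ T cells by their Vγ chain and profiled them with 10x Genomics 3' chemistry, 1 library per group. Of these, 4 came from C57BL/6 mice aged 8 weeks: Vγ4 and Vγ6 cells of ear skin, and Vγ6 cells of the thymus and of peripheral lymph nodes. A further Vγ6 library pooled ear skin of TcrdH2BeGFP mice, thymus of ACT-FLPe mice and lymph nodes of TcrdCreER mice, aged 8 to 10 weeks, and was not split back into its tissues. None of the groups is labelled as infected or treated, and the number of animals behind a library is not given in the sources used here. Skin was digested with collagenase for 75 min at 37 °C, thymus was depleted of CD4 and CD8 cells by complement for 30 min at 37 °C, and lymph nodes received neither step, so tissue and preparation cannot be told apart.

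After cells with at least 200 genes and at most 10% mitochondrial UMIs (unique molecular identifiers, 1 per captured RNA molecule) were kept, there were 1178 skin Vγ4, 687 skin Vγ6, 2517 thymus, 1458 lymph node and 2006 pooled cells, with 793463 to 6607432 UMIs per library. The median cell held 1455 UMIs in skin Vγ4, 1059 in skin Vγ6, 2156 in thymus, 1775.5 in lymph node and 1303.5 in the pooled library. Markers of γδ T17 cells, 13 genes that include Cd3e and Il17a, summed to 4842 CPM in thymus and 7997 to 9014 in the other libraries. Libraries shared 35 cell barcodes over their 10 pairs, with at most 9 in a pair. Levels are given as CPM, the UMIs of a gene per 1000000 UMIs of all kept cells of a library. With 1 library per group there is no replicate and no test: the 95% intervals are exact and cover counting error only. A call needs a ratio of at least 2-fold in either direction, an interval of that ratio that leaves out 1, and 20 CPM or more in one of the libraries. In such sums, fewer cells expressing a gene and less RNA per cell cannot be told apart.

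Type I interferons bind the receptor chains Ifnar1 and Ifnar2, whose kinases Jak1 and Tyk2 activate the transcription factor complex ISGF3, which holds Stat2 and Irf9 and binds interferon-stimulated response elements (ISRE) in promoters of antiviral genes. Interferon-γ acts through other receptor chains, and many genes, the GTPases above among them, answer both interferons. In cells with no infection, low tonic interferon signalling is known to keep part of this programme expressed.

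Since the ISRE is the sequence through which ISGF3 acts, the start regions of 4 core genes and 2 GTPases are shown, chosen as the most abundant genes of each list whose window holds a match. Each window runs from 250 bases before to 50 bases after a transcript start in RefSeq (build GRCm38.p6), is written 5′ to 3′ on the strand of the gene, and has in capitals every match on either strand to the ISRE letters searched, which are GAAA, any 2 bases and GAAA again, or TTTC, any 2 bases and TTTC where the match lies on the other strand. Isg15 (chr4:156200769-156201068, minus strand) holds 3 overlapping matches, which start at -78, -72 and -66 relative to the transcript start. Ifit1 (chr19:34640639-34640938, plus strand) holds 2 on the other strand, at -104 and -85, and Ifit3 (chr19:34583279-34583578, plus strand) holds 2 on the other strand, at -156 and -122. Oas1a (chr5:120907476-120907775, minus strand) has 2 overlapping matches at -20 and -14. Among the GTPases, Igtp (chr11:58199306-58199605, plus strand) has 1 match at -34, and Irgm1 (chr11:48871371-48871670, minus strand) has 2 overlapping matches at -30 and -24.
Isg15: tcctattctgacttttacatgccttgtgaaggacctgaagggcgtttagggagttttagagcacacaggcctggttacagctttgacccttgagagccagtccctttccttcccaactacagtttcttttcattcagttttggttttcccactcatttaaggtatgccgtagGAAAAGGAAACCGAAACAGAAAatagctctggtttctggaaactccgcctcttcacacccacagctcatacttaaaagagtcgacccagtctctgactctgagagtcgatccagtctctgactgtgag
Ifit1: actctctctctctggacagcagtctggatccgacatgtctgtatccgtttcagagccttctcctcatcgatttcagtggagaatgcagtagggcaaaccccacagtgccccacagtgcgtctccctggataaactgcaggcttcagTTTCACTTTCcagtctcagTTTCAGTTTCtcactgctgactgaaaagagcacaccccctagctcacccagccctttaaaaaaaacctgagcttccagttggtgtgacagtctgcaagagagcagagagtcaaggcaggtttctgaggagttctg
Ifit3: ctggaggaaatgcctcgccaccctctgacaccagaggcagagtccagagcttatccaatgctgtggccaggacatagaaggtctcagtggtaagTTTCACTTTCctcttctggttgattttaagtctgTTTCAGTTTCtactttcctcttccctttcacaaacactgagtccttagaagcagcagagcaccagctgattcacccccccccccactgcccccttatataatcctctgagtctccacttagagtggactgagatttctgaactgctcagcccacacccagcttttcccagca
Oas1a: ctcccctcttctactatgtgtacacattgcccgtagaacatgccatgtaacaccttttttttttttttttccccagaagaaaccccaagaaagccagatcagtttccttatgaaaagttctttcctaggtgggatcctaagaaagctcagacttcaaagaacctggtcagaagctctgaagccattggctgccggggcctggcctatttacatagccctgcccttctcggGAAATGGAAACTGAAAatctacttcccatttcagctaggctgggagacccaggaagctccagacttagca
Igtp: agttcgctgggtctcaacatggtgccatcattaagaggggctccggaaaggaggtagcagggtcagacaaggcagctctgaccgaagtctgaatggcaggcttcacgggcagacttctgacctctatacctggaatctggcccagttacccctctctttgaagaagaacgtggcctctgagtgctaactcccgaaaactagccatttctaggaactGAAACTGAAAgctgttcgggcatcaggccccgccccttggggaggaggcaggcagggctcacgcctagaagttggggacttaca
Irgm1: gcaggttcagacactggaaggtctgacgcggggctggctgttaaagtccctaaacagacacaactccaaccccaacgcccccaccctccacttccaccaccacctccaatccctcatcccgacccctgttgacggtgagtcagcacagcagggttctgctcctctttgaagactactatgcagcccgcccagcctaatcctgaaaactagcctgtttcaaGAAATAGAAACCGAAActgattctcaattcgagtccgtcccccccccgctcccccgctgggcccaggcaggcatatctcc

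Of the 34 members, 27 have a window in the RefSeq table, and 16 of these 27 (59.3%) hold at least 1 ISRE match, against 3.44% of all 32851 windows of the table and 3.99% of its genes. The share was 6 of 7 among the GTPases (85.7%) and 4 of 9 among the core genes with a window (44.4%). A second motif, the interferon-γ activated site GAS (TTCNNNGAA, which reads the same on both strands), was found in 9 of the 27 members (33.3%), against 8.30% of all windows and 9.55% of genes. The core genes Irf7, Ifit2, Oasl1, Oasl2 and Xaf1 had no ISRE match in these windows, nor had Irf1, Irf9, Isg20, Ifi35, Samd9l and Ifi47. This says only that these letters are not there. Usp18, Zbp1, Rtp4, Parp14, Ifi27l2a, Dhx58 and Parp9 have no window in the table. A match is a description of sequence and not evidence of binding.

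Summed over the 34 members, interferon response RNA was lowest in both skin libraries and highest in the thymus. The sum was 526 (494 to 559) CPM in skin Vγ4 cells, 556 (505 to 610.2) in skin Vγ6 cells, 2055 (2020.4 to 2089.7) in thymus, 1389.6 (1354 to 1426) in lymph node and 1492 (1449 to 1537) in the pooled library. The intervals of the skin libraries overlap each other, and thymus and lymph node stand apart from skin and from each other beyond counting error. A cell carried on average 0.863 UMIs of the members in skin Vγ4, 0.642 in skin Vγ6, 5.39 in thymus, 4.01 in lymph node and 2.20 in the pooled library, numbers that also hold each library's depth. The inducible core separated the thymus further, with 139.7 CPM in skin Vγ4, 158 in skin Vγ6, 667 in thymus, 230.1 in lymph node and 385 in the pooled cells. All 34 members had a UMI in thymus, lymph node and pooled cells, against 31 in skin Vγ4 and 27 in skin Vγ6, the shallowest library, where 3 UMIs correspond to 3.78 CPM. The most abundant member held 14.7% of the thymus sum (Ifi27l2a), 23.8% of the lymph node sum (Ifi203) and 21.3% of the skin Vγ6 sum (Samd9l), so no single gene made up a library's total.

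**Figure D1:**
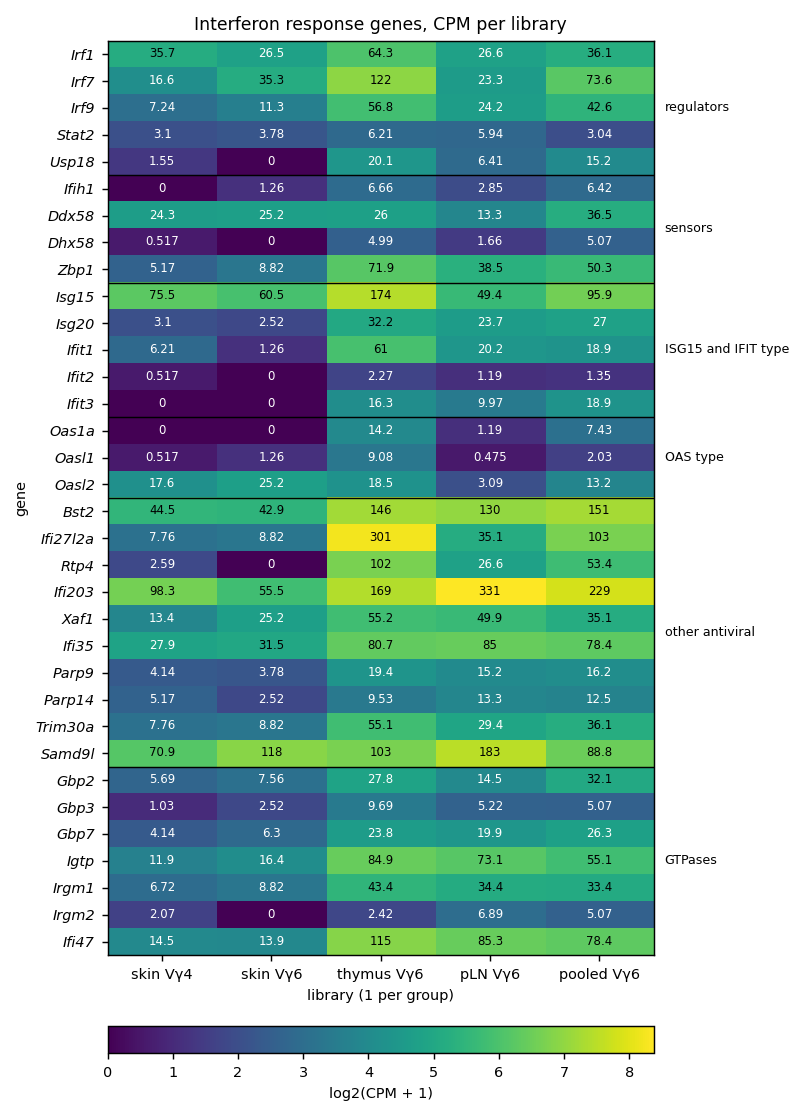
CPM of the 34 members in the 5 libraries, with genes grouped by role down the page and the value printed in each field, coloured by log2(CPM + 1). Thymus is the brightest column for Ifi27l2a (301 CPM), Isg15 and Irf7, whereas Ifi203 is brightest in lymph node (331 CPM), and Ifit3 and Oas1a are at 0 in both skin libraries.

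Among the regulators, Irf7, the factor that amplifies interferon production and response (chr7:141262706-141266481, GRCm38), stood at 16.6 CPM in skin Vγ4, 35.3 in skin Vγ6, 122 in thymus, 23.3 in lymph node and 73.6 in the pooled cells. Irf9, the DNA-binding subunit of ISGF3, reached 7.24 CPM in skin Vγ4, 11.3 in skin Vγ6, 56.8 in thymus, 24.2 in lymph node and 42.6 in the pooled cells. Irf1, which interferon-γ induces strongly, was at 35.7 CPM in skin Vγ4, 26.5 in skin Vγ6, 64.3 in thymus, 26.6 in lymph node and 36.1 in the pooled cells. Thymus thus held the highest level of these 3 factors. Usp18, a protease that strips Isg15 from proteins and restrains the type I receptor, was at 20.1 CPM in thymus and 6.41 in lymph node, with 3 UMIs in skin Vγ4 and 0 in skin Vγ6. Stat2, with 3 to 41 UMIs per library, lay between 3.04 and 6.21 CPM in all 5 libraries.

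Of the sensors, Zbp1, which recognises Z-form nucleic acids, was the most abundant outside skin, at 5.17 CPM in skin Vγ4, 8.82 in skin Vγ6, 71.9 in thymus, 38.5 in lymph node and 50.3 in the pooled cells. Ddx58, the RNA sensor RIG-I, varied least, from 13.3 CPM in lymph node to 36.5 in the pooled cells. Ifih1 (the RNA sensor MDA5) and Dhx58 (their relative LGP2) were rare, with at most 6.66 and 5.07 CPM, and had 1 and 0 UMIs in skin Vγ6. In skin Vγ6 cells Ddx58 therefore made up most of the sensor RNA, 25.2 of 35.3 CPM.

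Isg15, a ubiquitin-like protein that is conjugated to other proteins, was the most abundant core gene in every library but lymph node, where Xaf1 was level with it at 49.9 CPM. Isg15 stood at 75.5 CPM in skin Vγ4, 60.5 in skin Vγ6, 174 in thymus, 49.4 in lymph node and 95.9 in the pooled cells. Ifit1, which binds RNA lacking host cap marks, was at 6.21 CPM in skin Vγ4, 1.26 in skin Vγ6, 61.0 in thymus, 20.2 in lymph node and 18.9 in the pooled cells, the skin Vγ6 value being 1 UMI. Ifit3, the partner that stabilises Ifit complexes, had 16.3 CPM in thymus, 9.97 in lymph node and 0 UMIs in both skin libraries. Skin cells thus had Isg15 RNA while the Ifit genes were at or near 0 there. Ifit2 had at most 2.27 CPM anywhere, and Isg20, an RNA exonuclease, was at 3.10 CPM in skin Vγ4, 2.52 in skin Vγ6, 32.2 in thymus, 23.7 in lymph node and 27.0 in the pooled cells.

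The OAS genes did not follow 1 pattern. Oas1a, an enzyme that makes the messenger that activates RNase L, had 94 UMIs in thymus (14.2 CPM), 5 in lymph node (1.19 CPM) and 0 in both skin libraries. Oasl1, which in mouse restrains Irf7 translation, had 60 UMIs in thymus and 2 in lymph node. Oasl2, an OAS-like protein with ubiquitin-like domains, was instead as high in skin as anywhere, at 17.6 CPM in skin Vγ4, 25.2 in skin Vγ6, 18.5 in thymus, 3.09 in lymph node and 13.2 in the pooled cells.

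Among the other antiviral genes, Ifi27l2a, a small hydrophobic interferon-induced protein (chr12:103442167-103443680, build GRCm38), spanned a wide range, at 7.76 CPM in skin Vγ4, 8.82 in skin Vγ6, 301 in thymus, 35.1 in lymph node and 103 in the pooled cells. Rtp4, an interferon-induced receptor transport protein (chr16:23520291-23614222, which overlaps Gm45338 on the same strand and Masp1 on the other), was at 2.59 CPM in skin Vγ4, 0 in skin Vγ6, 102 in thymus, 26.6 in lymph node and 53.4 in the pooled cells. Bst2, the virion tether tetherin, was at 44.5 CPM in skin Vγ4, 42.9 in skin Vγ6, 146 in thymus, 129.7 in lymph node and 151 in the pooled cells. For Ifi27l2a and Rtp4 the thymus was highest by a wide margin, whereas Bst2 was almost as high in lymph node. Ifi203, a PYHIN family protein, was at 98.3 CPM in skin Vγ4, 55.5 in skin Vγ6, 169 in thymus, 331 in lymph node and 229 in the pooled cells, and Samd9l, a translation-inhibiting restriction factor, was at 70.9 CPM in skin Vγ4, 118 in skin Vγ6, 103 in thymus, 183 in lymph node and 88.8 in the pooled cells. Both were highest in lymph node, unlike the core genes. Xaf1, Ifi35, Parp9, Parp14 and Trim30a lay between 2.52 and 85.0 CPM, each lower in both skin libraries than in thymus, lymph node or the pooled cells.

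The GTPases that act on membranes of invading microbes were low in skin and close to each other in thymus and lymph node, with summed levels of 46.0 CPM in skin Vγ4, 55.5 in skin Vγ6, 307 in thymus, 239 in lymph node and 235 in the pooled cells. Ifi47 was the most abundant, at 14.5 CPM in skin Vγ4, 13.9 in skin Vγ6, 115 in thymus, 85.3 in lymph node and 78.4 in the pooled cells. Igtp was at 11.9 CPM in skin Vγ4, 16.4 in skin Vγ6, 84.9 in thymus, 73.1 in lymph node and 55.1 in the pooled cells. Irgm1, which keeps the other immunity-related GTPases off host membranes, was at 6.72 CPM in skin Vγ4, 8.82 in skin Vγ6, 43.4 in thymus, 34.4 in lymph node and 33.4 in the pooled cells. The guanylate-binding proteins Gbp2, Gbp3 and Gbp7 reached at most 32.1 CPM, for Gbp2 in the pooled cells, and Irgm2 at most 6.89, in lymph node. Some of these genes share exons or sequence: Igtp and Irgm2 overlap on the same strand of chromosome 11, as do Ifi203 and Mndal on chromosome 1, and the Ifit, Oasl and Gbp genes have close paralogs, so their split of reads is uncertain. Irf9, Rtp4, Parp14, Gbp7 and Ifi47 also overlap another gene on the same strand.

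The 4 comparisons below share libraries, since skin Vγ6 enters 3 of them and thymus and lymph node enter 2 each, so each is given by its own values. The comparison of skin with lymph node Vγ6 cells asks how the same γδ T cell subset differs between a barrier tissue and a lymphoid one. Skin Vγ6 cells held less RNA of most interferon genes, and of 5 with a higher level there Oasl2 was the 1 called, while RNA of the receptor chains was higher there. Of the 34 members, 20 reached 20 CPM in either library, and 1 was called higher and 13 lower, against 16.0% higher and 30.4% lower over the 5770 genes that reached that level. Without the CPM minimum, the interval lay above 1 for 2 members and below 1 for 21 of 34, against 14.4% and 23.7% of genes, and 11 were not distinguishable at this depth. The level was lower in skin for 29 of the 34, beside 8611 of the 13763 genes with a UMI. The median log2 ratio over all 34 members, with 1 CPM added to both levels, was -1.47, beside -0.31 over all genes with a UMI and -0.38 over those that reached 20 CPM. Other ways of scaling the libraries placed the median of genes with at least 20 CPM at -0.13 (TMM) or -0.11 (median of ratios) and the members' median at -1.31 or -1.29, and gave 47.1% or 48.1% higher among all genes called, where CPM gave 34.4%.

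By role, the 10 other antiviral genes all had intervals below 1. Ifi203 was 5.97-fold lower (4.42 to 8.25) in skin, Bst2 3.03-fold lower (2.14 to 4.42), Ifi27l2a 3.98-fold lower (1.89 to 10.1) and Ifi35, a partner of the interferon-induced protein Nmi, 2.70-fold lower (1.80 to 4.23). Rtp4 had 0 UMIs in skin and 112 in lymph node, which makes it at least 7.04-fold lower, taking 3 counts as the floor of the skin library. All 7 GTPases had a lower level and 3 were called, Ifi47 6.15-fold lower (3.40 to 12.4), Igtp 4.46-fold lower (2.57 to 8.48) and Irgm1 3.90-fold lower (1.85 to 9.88). Among the sensors Zbp1 was 4.36-fold lower (2.07 to 11.0). Isg20, with 2 UMIs in skin, was 9.42-fold lower (2.54 to 78.9), and Ifit1, with 1, was 16.0-fold lower (2.80 to 640.0), a wide interval for 1 UMI. Under TMM or median-of-ratios scaling Ifit1 was no longer called.

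Several members, in the core and outside it, were not distinguishably lower in skin. Oasl2 was 8.16-fold higher (3.86 to 17.9) in skin Vγ6 cells, 20 UMIs against 13 in the deeper lymph node library. The ratio of skin to lymph node was 0.995 (0.593 to 1.60) for Irf1, 1.52 (0.959 to 2.33) for Irf7 and 1.22 (0.875 to 1.68) for Isg15, and these 3 intervals include 1. Ddx58 had a ratio of 1.90 (1.08 to 3.21), which leaves out 1 but did not reach 2-fold. Of the 7 members with no UMI in skin Vγ6 cells, Usp18 was at least 1.70-fold lower, Ifit3 at least 2.64-fold lower and Irgm2 at least 1.82-fold lower; Ifit2, Oas1a and Dhx58 had 5 to 7 UMIs in lymph node, too few to set a fold. Over the 12 core genes, 1 was called higher and 3 lower, with a median log2 ratio of -1.13. Markers of other cell types differed as well. Dendritic markers (9 genes, led by Cd74) summed to 601 CPM in skin and 1429 in lymph node. Cd74 and the MHC class II genes H2-Aa, H2-Ab1 and H2-Eb1 made up most of the dendritic sum in all 5 libraries. Some T cells also express MHC class II genes. Zbtb46 and Xcr1 went the other way, at 11.3 CPM in skin against 0.475 and 8.82 against 1.19. Flt3, Clec9a and Itgax had no UMI in skin and at most 2 in lymph node. Macrophage markers summed to 11.3 CPM in skin and 49.9 in lymph node, and B cell markers to 2.52 and 111. The macrophage marker Adgre1 had no UMI in either library. Cells were then left out by dendritic, macrophage, B cell, keratinocyte, plasmacytoid dendritic (pDC) and mast cell markers, not counting Ccr9, Tcf4, Runx2, Kit and Cpa3. Without cells that held at least 2 UMIs of these markers, 1 member was called higher and 18 lower. This rule left out 80 of 687 skin Vγ6 cells but 761 of 1458 lymph node cells, so it removed far more than a few cells there.

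**Figure D2:**
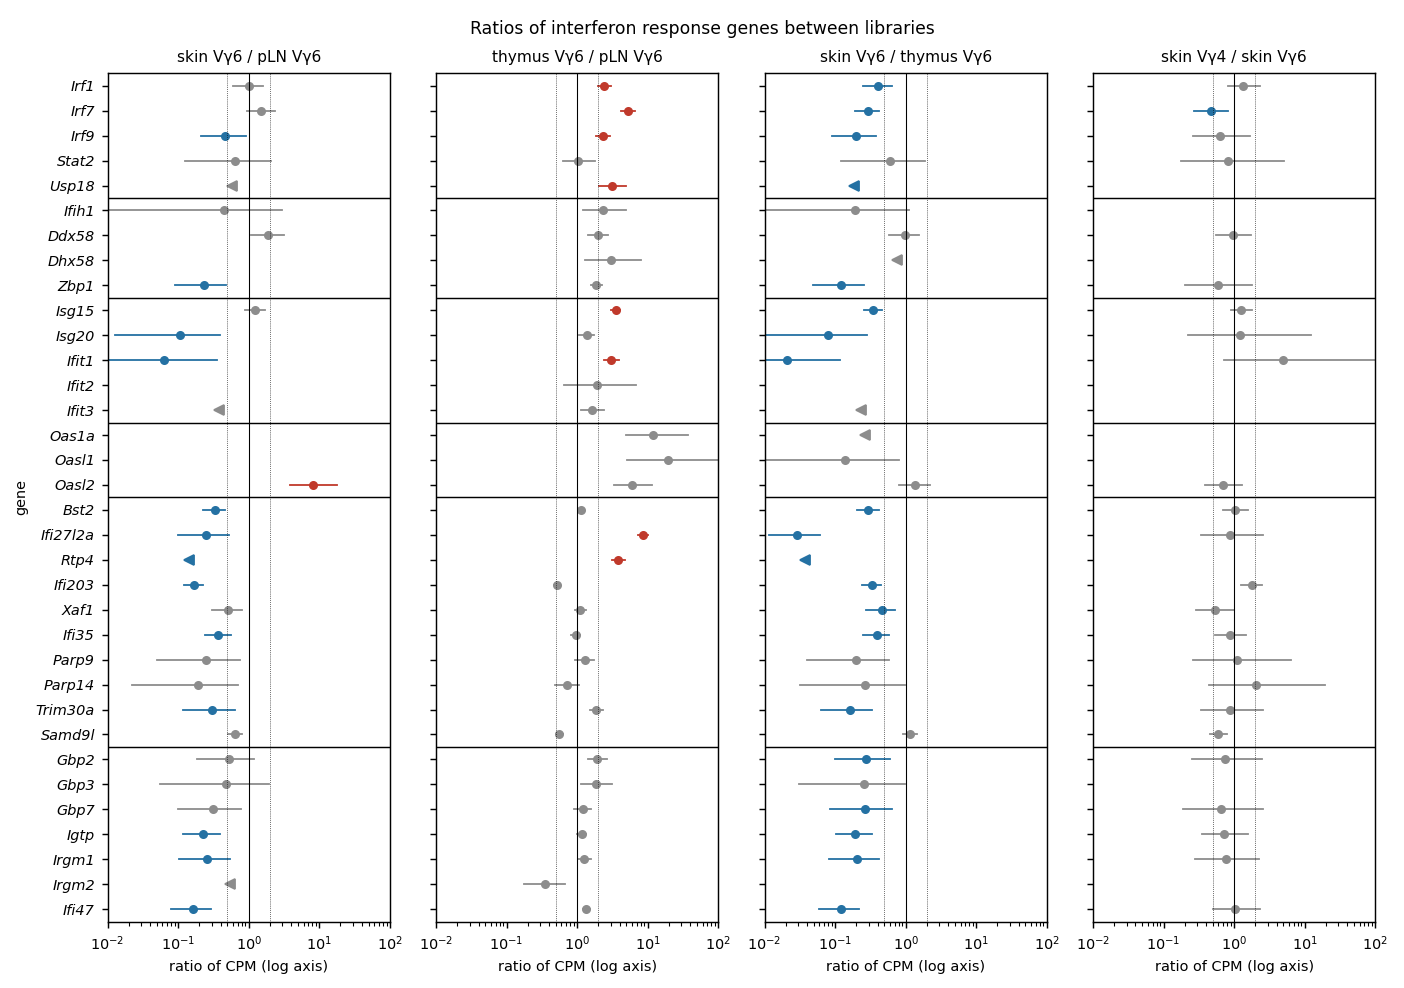
Ratio of levels with its 95% counting interval for each member, on a logarithmic axis, in the 4 comparisons, where the solid line marks no difference, dotted lines mark 2-fold, red marks calls of a higher and blue of a lower level in the library named first, grey marks no call, and triangles are bounds where the library had no UMI. In skin over lymph node and skin over thymus most points lie left of the line and Oasl2 lies right of it, whereas in thymus over lymph node Ifi27l2a, Irf7 and Rtp4 lie far to the right.

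Receptor and signalling genes of the pathway were mostly higher in skin. Of 16 receptor and signalling genes, 13 reached 20 CPM, and 9 of these were called higher and 2 lower in skin Vγ6 than in lymph node cells. Ifnar1 had 56.7 CPM in skin against 18.3 in lymph node, 3.10-fold higher (2.10 to 4.54), and Ifnar2 39.1 against 15.4 CPM, 2.53-fold higher (1.59 to 3.94). Socs3, an inhibitor of cytokine receptor signalling, was 6.96-fold higher (3.46 to 14.3). Of 14 genes of upstream sensing 9 reached 20 CPM, and 4 were called higher, Irf5, Irf4, Irf8 and Ikbke, and 1 lower, Tmem173, which encodes STING. In a separate list of 67 other interferon-induced genes, 25 reached 20 CPM, and 18 were called lower and 2 higher. The immunoproteasome subunit genes Psmb10 and Psmb9 were 21.4-fold lower (10.4 to 53.5) and 19.7-fold lower (7.65 to 72.8), and Phf11b had 0 UMIs in skin against 83.4 CPM in lymph node. The 2 exceptions were Cxcl10, a chemokine, at 30.2 CPM in skin against 3.09 in lymph node, and Ifitm2, which blocks viral entry, at 32.8 against 4.27.

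Few interferon ligand molecules were seen. Of 10 interferon genes on the list, Ifng had 45 UMIs in thymus, 6 in the pooled cells and 1 in lymph node, Ifna2 had 2 in thymus, and the other 8 had none in any library.

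Thymus against lymph node compares Vγ6 cells of 2 lymphoid organs, and here the inducible core was higher in thymus while most of the other members differed little. Of the 34 members, 22 reached 20 CPM; 8 were called higher and 0 lower, against 11.8% higher and 11.3% lower over 5703 genes. Without the CPM minimum the interval lay above 1 for 24 and below 1 for 3 of the 34, Ifi203, Samd9l and Irgm2, against 20.6% and 24.4% of genes. All 12 core genes had a higher level in thymus, with a median log2 ratio of 1.67, beside 0.38 over the 22 members outside the core and 0.03 over all genes. Over all genes with a UMI, 7787 of 15211 had a higher level in thymus. Ifi27l2a was 8.58-fold higher (7.25 to 10.2), Irf7 5.23-fold higher (4.24 to 6.52), Rtp4 3.84-fold higher (3.14 to 4.73), Isg15 3.52-fold higher (3.03 to 4.10) and Ifit1 3.02-fold higher (2.39 to 3.86). Usp18 was 3.14-fold higher (2.06 to 4.94), Irf1 2.42-fold higher (1.96 to 3.01) and Irf9 2.34-fold higher (1.88 to 2.95). Dividing cells, which made up 15.5% of thymus and 36.2% of lymph node cells, moved with this comparison: without them, Usp18, Irf1 and Irf9 were under 2-fold (log2 ratios of 0.89, 0.69 and 0.85), and 6 members were called higher and 2 lower. The OAS genes stayed under 20 CPM in both libraries, with ratios of 11.98 (4.96 to 37.8) for Oas1a, 19.1 (5.07 to 161) for Oasl1, which had 2 UMIs in lymph node, and 5.98 (3.37 to 11.6) for Oasl2.

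Of the 23 remaining members 18 had a higher level in thymus, beside 7787 of 15211 genes with a UMI. The interval lay above 1 for 13 of these members and below 1 for 3. The direction was thus mostly the same but none reached a call. Zbp1, a core gene, and Trim30a, a ring-finger protein that dampens NF-κB signalling, had ratios of 1.87 (1.56 to 2.25) and 1.87 (1.52 to 2.31), short of 2-fold. Ifi203 and Samd9l were lower in thymus, with ratios of 0.510 (0.471 to 0.552) and 0.562 (0.506 to 0.624), close to 2-fold. Both passed it and were called lower when every cell was thinned to 750 UMIs, with log2 ratios of -1.10 and -1.08, and also without dividing cells. None of the 5 GTPases that reached 20 CPM was called, and Igtp and Ifi47 had ratios of 1.16 (1.01 to 1.34) and 1.35 (1.19 to 1.54). Receptor RNA was higher in thymus, where 7 of the 12 receptor and signalling genes that reached 20 CPM were called higher and none lower. Ifnar1 was 4.23-fold higher (3.32 to 5.45), Ifnar2 4.13-fold higher (3.17 to 5.45), the interferon-γ receptor chains Ifngr1 and Ifngr2 4.79-fold higher (4.47 to 5.14) and 5.10-fold higher (4.25 to 6.17), and Socs3 11.3-fold higher (6.82 to 19.99). Of the 67 other interferon-induced genes, 25 reached 20 CPM, and 4 were called higher (Ly6a, Trim25, Trafd1 and Lgals9) and 2 lower (Pyhin1 and Phf11b). Markers of other cell types moved with this comparison. αβ T or thymocyte markers summed to 159 CPM in thymus and 15.9 in lymph node, and B cell markers to 21.6 and 111. Dendritic markers, mostly Cd74 and MHC class II genes, summed to 124 and 1429. Mast cell markers summed to 136 and 1.19. In thymus this sum was 826 UMIs of Cpa3, which some T cells also express, and 73 of Kit. Mcpt4, Cma1, Tpsb2 and Fcer1a had no UMI in either library. The αβ T or thymocyte markers, Cpa3 and Kit were not used to leave cells out. Without cells that held at least 2 UMIs of the markers that were used, 6 members were called higher and 2 lower. This left out 233 of 2517 thymus cells and 761 of 1458 lymph node cells. The pDC markers summed to 216 CPM in thymus and 50.6 in lymph node, with Ccr9, which some T cells also express, holding 170.0 of the thymus value; the defining pDC marker Siglech had 1 UMI in thymus and 6 in lymph node.

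In skin against thymus, the remaining tissue pair, nearly all members were lower in skin Vγ6 cells. Of 23 that reached 20 CPM, 0 were called higher and 20 lower, against 13.7% and 24.5% of 5656 genes. Without the CPM minimum the interval lay below 1 for 27 of the 34 and above 1 for 0, against 20.8% and 13.0% of genes. The median log2 ratio was -1.77, beside -0.29 over all genes with a UMI. Among all genes called, 35.8% were higher in skin, or 44.4% and 51.2% under TMM and median-of-ratios scaling, under which 18 members were lower and 0 higher. Ifi27l2a was 34.2-fold lower (16.6 to 85.1), Rtp4 at least 27.0-fold lower and Usp18 at least 5.32-fold lower. Irf7 was 3.45-fold lower (2.37 to 5.23) and Irf9 5.00-fold lower (2.61 to 11.0), while Zbp1 was 8.15-fold lower (3.92 to 20.4). The effectors Ifit1 (1 UMI in skin) and Isg20 (2 UMIs) were 48.4-fold lower (8.64 to 1916) and 12.8-fold lower (3.50 to 106), and Ifit3 and Oas1a, with no UMI in skin, were at least 4.32-fold lower and at least 3.76-fold lower. Ifi47 was 8.32-fold lower (4.62 to 16.7), Igtp 5.18-fold lower (3.01 to 9.79), Trim30a 6.24-fold lower (3.00 to 15.6) and Bst2 3.41-fold lower (2.42 to 4.95). Only 3 members that reached 20 CPM were not called: Oasl2 with a ratio of 1.37 (0.806 to 2.20), Samd9l with 1.15 (0.919 to 1.43) and Ddx58 with 0.968 (0.577 to 1.54). Of the 67 other interferon-induced genes, 26 reached 20 CPM, and 19 were called lower and none higher. Dendritic markers, mostly Cd74 and MHC class II genes, summed to 601 CPM in skin and 124 in thymus. Keratinocyte markers summed to 261 and 68.0, and Sfn held most of the skin sum, at 226 CPM against 21.8 in thymus. Krt10 was level at 30.2 and 31.0 CPM, and Perp was lower in skin, at 3.78 and 14.4. αβ T or thymocyte markers summed to 17.6 and 159. Mast cell markers, of which only Cpa3 and Kit had a UMI, summed to 3.78 and 136. Here too, αβ T or thymocyte markers, Cpa3 and Kit were not used to leave cells out. Without cells that held at least 2 UMIs of the markers that were used, 0 members were called higher and 21 lower. This left out 80 of 687 skin Vγ6 cells and 233 of 2517 thymus cells.

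Skin Vγ4 cells against skin Vγ6 cells sets 2 subsets of the same tissue side by side, and most members could not be told apart between them at this depth. Of the 34 members only 10 reached 20 CPM, and 0 were called higher and 1 lower in Vγ4 cells, against 4.26% and 3.18% of 4973 genes (57.3% of all calls higher, or 67.5% under TMM scaling). That 1 gene was Irf7, 2.13-fold lower (1.24 to 3.66) in Vγ4 cells, and Irf7 was no longer called under TMM scaling, stricter cell filtering, the mean over cells, thinning, a minimum of 50 CPM or without cells that held markers of other types. Without the CPM minimum, the interval lay above 1 for Ifi203 alone, with a ratio of 1.77 (1.27 to 2.52), and below 1 for Irf7 and Samd9l, Samd9l with a ratio of 0.598 (0.457 to 0.786), against 5.73% and 7.10% of genes. The other 31 members either were not distinguishable at this depth (29) or had no UMI in both libraries (Ifit3 and Oas1a). The median log2 ratio was -0.11, and its sign turned when cells were filtered more strictly. In the wider pathway Ifitm3, which blocks viral entry, was 19.1-fold higher (5.14 to 159.9) in Vγ4 cells, with 2 UMIs in Vγ6 cells, Ifngr1 was 2.18-fold higher (1.97 to 2.42) and Socs3 3.07-fold higher (1.94 to 5.10). Irf4 and Irf8 were 4.52-fold lower (2.60 to 8.10) and 2.52-fold lower (1.46 to 4.35), and the chemokine gene Ccl5 had 1 UMI in Vγ4 cells against 231 CPM in Vγ6 cells. Beside these, dendritic markers, mostly Cd74 and MHC class II genes, summed to 54.8 CPM in Vγ4 and 601 in Vγ6 cells, and keratinocyte markers to 1085 and 261. Their part in these differences was not tested.

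Whether the interferon RNA came from many cells or from a few was read from UMIs per cell, after each cell was thinned at random to 750 UMIs and shallower cells were left out (31 skin Vγ4, 99 skin Vγ6 and 261 pooled cells, none in thymus or lymph node). Member UMIs were spread over many cells in thymus and lymph node, and in addition a small group of cells held far more core UMIs than an even spread would place there. At least 1 member UMI was found in 30.8% of skin Vγ4, 33.5% of skin Vγ6, 71.3% of thymus, 63.6% of lymph node and 53.9% of pooled cells. An even spread of the same UMIs, a binomial expectation with no test, would place 1 or more in 2060 thymus cells, where 1795 were counted, and in 1079 lymph node cells, where 927 were counted. Before thinning, Ifi27l2a was seen in 34.2% of thymus, 5.62% of lymph node and 0.728% of skin Vγ6 cells. Isg15 was seen in 29.2%, 7.61% and 5.53% of the same cells, and Ifi203 in 31.9%, 53.2% and 6.40%. These shares also depend on depth, and the part of free RNA in them was not tested.

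**Figure D3:**
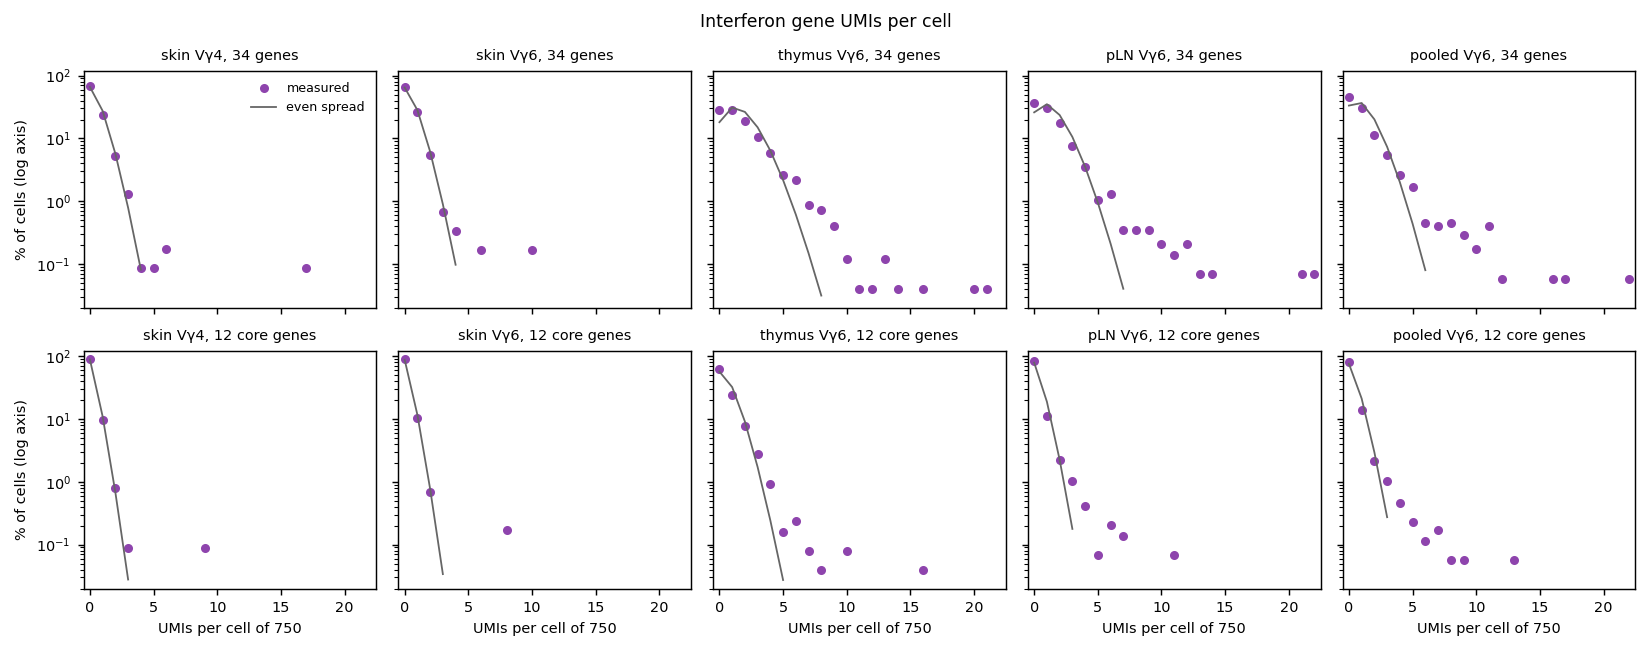
Share of cells (logarithmic axis) by the number of UMIs per cell among 750, for all 34 members in the upper row and the 12 core genes in the lower row, 1 panel per library, with dots for measured shares and the line for an even spread. In thymus, lymph node and pooled cells the dots lie above the line from about 3 core UMIs upward, and they run on to single cells with 11 to 16 core UMIs where the line is near 0.

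The core genes show the uneven part. At least 3 core UMIs were found in 108 thymus cells, where an even spread gives 50.1, in 28 lymph node cells, where it gives 2.76, and in 38 pooled cells, where it gives 5.12. These cells were 4.29% of thymus, 1.92% of lymph node and 2.18% of pooled cells, and held 29.0%, 33.6% and 34.7% of the core UMIs. In skin, 2 Vγ4 cells and 1 Vγ6 cell reached 3, with 0.329 and 0.206 given by an even spread. The 5% of cells with the most core UMIs held 31.5% of them in thymus, 56.0% in lymph node and 52.6% in the pooled library, against 21.7%, 32.0% and 30.8% under an even spread. Dispersion of the core UMIs, the variance over cells relative to an even spread, was 1.55 in skin Vγ4, 1.69 in skin Vγ6, 1.77 in thymus, 2.29 in lymph node and 2.42 in the pooled cells. The 2 skin values leaned on single cells, with 9 of 142 core UMIs in 1 Vγ4 cell and 8 of 78 in 1 Vγ6 cell. Core RNA was thus both higher and spread over more cells in thymus (36.7% of cells with a core UMI) than in lymph node (15.5%), where a larger share of it sat in a few cells. The most extreme lymph node cell had 37 core UMIs among 1985, 14 of them Isg15 and 9 Ifit3, and the most extreme thymus cell had 27 among 1616, 10 of them Ifit1 and 7 Ifit3. In skin the highest cells had 11 core UMIs, 8 of them Ifit1 in the Vγ4 cell and 8 of them Isg15 in the Vγ6 cell.

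The GTPases were spread more evenly than the core in lymph node, where both lists had close totals after thinning, 330 GTPase and 348 core UMIs. At least 1 of their UMIs was present in 19.9% of thymus and 18.3% of lymph node cells, and their dispersion was 1.28 in thymus, 1.41 in lymph node and 1.42 in the pooled cells. At least 3 were present in 25 thymus cells against 5.34 under an even spread, and in 11 lymph node cells against 2.37. In skin Vγ6 cells their dispersion of 2.47 rested on 29 UMIs, 6 of which sat in 1 cell. Gene by gene, the median dispersion of members that reached 20 CPM was 1.08 in thymus (22 genes), beside 1.01 over genes no more abundant than the top member, and 1.12 in lymph node (18 genes), beside 0.999. Of these members, 11 of 22 in thymus and 11 of 18 in lymph node lay above the value that 90% of those comparable genes did not exceed (1.08 and 1.07). The highest were Ifi27l2a (1.84), Ifit1 (1.68) and Isg15 (1.20) in thymus, and Ifit1 (1.85), Isg15 (1.80) and Ifi27l2a (1.46) in lymph node. Irf9, Xaf1 and Trim30a in thymus, at 1.01, 0.995 and 0.998, and Irf7 and Ifi35 in lymph node, at 0.976 and 0.934, lay at or near an even spread.

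Core genes were seen together in the same cells in lymph node, pooled and thymus libraries. Among lymph node cells with an Ifit1 UMI 61.9% had a UMI of another core gene, against 14.3% of cells without, and for Isg15 the shares were 54.2% and 12.6%. In thymus, the shares were 59.5% and 33.6% for Ifit1 and 43.5% and 28.1% for Isg15. The share was higher in cells with the gene for 7 of 7 core genes seen in at least 10 cells in lymph node, for 9 of 9 in the pooled cells and for 10 of 11 in thymus, where Oasl1 was the exception (25% against 36.2%). The 2 intervals stood apart for 7 of 7, 7 of 9 and 6 of 11 of these genes. In skin it was higher for 1 of 3 genes in Vγ4 cells and 0 of 4 in Vγ6 cells. Skin Vγ6 cells with an Irf7 UMI had another core UMI in 5.26% of 19 cells, against 8.44% of cells without, from few UMIs per gene.

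Cells with at least 3 core UMIs after thinning (108 in thymus, 28 in lymph node and 38 in the pooled library) were set against cells with none (1594, 1232 and 1426) for genes outside the core, as a description within each library. High cells carried more of the other interferon genes, and little difference in γδ T17 markers was seen in thymus and lymph node. Members outside the core summed to 3088 CPM in high cells and 1151 CPM in cells with none in thymus, a ratio of 2.68 (2.48 to 2.89). In lymph node they summed to 5849 CPM in high cells and 966 CPM in cells with none, a ratio of 6.06 (5.41 to 6.77), and in the pooled library the ratio was 4.91 (4.33 to 5.55). The GTPases alone had ratios of 3.07 (2.63 to 3.57) in thymus and 5.66 (4.34 to 7.28) in lymph node. In lymph node Isg20 stood at 389.9 CPM in high cells, against 15.2 CPM in cells with none, and Ifi203 at 1458 CPM in high cells, against 282 CPM in cells with none. The 67 other interferon-induced genes, none of which chose the cells, had summed ratios of 1.59 (1.51 to 1.67), 3.09 (2.87 to 3.32) and 2.73 (2.55 to 2.92) in thymus, lymph node and pooled cells. High cells were close in depth to cells with none, with median UMIs of 2059 and 2241 in thymus and 1548 and 1823.5 in lymph node, and fewer of them were dividing, 8.33% against 18.5% in thymus and 17.9% against 38.6% in lymph node. γδ T17 markers such as Il17a had ratios of 1.003 (0.946 to 1.06), 1.10 (1.002 to 1.20) and 0.804 (0.732 to 0.880).

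**Figure D4:**
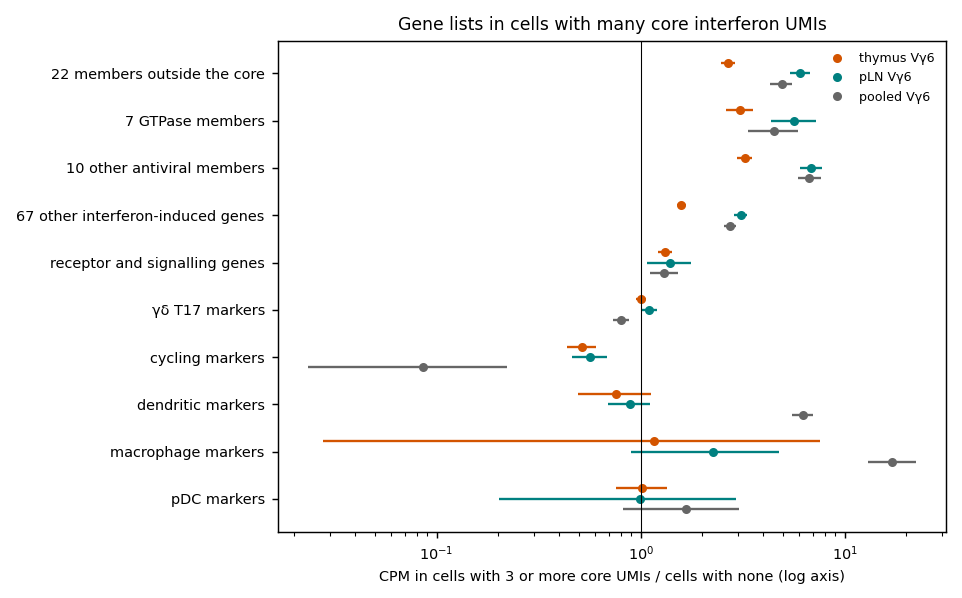
Ratio of the summed level of each gene list in cells with at least 3 core UMIs over cells with none (logarithmic axis, 95% counting intervals), in thymus, lymph node and pooled cells. Members outside the core lie at 2.68, 6.06 and 4.91, γδ T17 markers lie near 1, cycling markers lie below 1, and macrophage markers stand at 17.1 in the pooled cells.

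Genes outside the 34 also stood out in the high cells. In thymus Cxcl10 had 120.1 CPM in high cells, against 14.0 CPM in cells with none, and Rsad2, the antiviral enzyme viperin, had 84.1 CPM in high cells, against 11.2 CPM in cells with none. Gm4955, Pydc4, Tgtp2, Pyhin1, Dtx3l, Mndal and Phf11b were also among the genes that led there. In lymph node Gm4955 had 1288 CPM in high cells, against 118 CPM in cells with none, and Pydc4, Phf11b, Mndal, Pyhin1, Ms4a4b, Ms4a6b, Sp110 and Samhd1 were also among the genes that led. Of non-members with at least 20 UMIs in the high cells, the ratio's interval lay above 2 for 9 of 1857 genes in thymus and 15 of 528 in lymph node. Of the 67 other interferon-induced genes, 20 were among those 1857 and 6 among the 9 in thymus, and 11 were among those 528 and 7 among the 15 in lymph node. The minimum of 20 UMIs was set on the high cells alone, which favours genes that are high there, so these counts only describe the high cells. The pooled library differed, since Ifitm3, Wfdc17, Lgmn, Ifitm2, Aif1, Ms4a6c, Lyz2, C1qb, Tyrobp and Fcer1g led among 27 of 562 genes. Other interferon-induced genes were 13 of those 562 and 5 of the 27. Macrophage markers there had a ratio of 17.1 (13.0 to 22.4) and dendritic markers one of 6.22 (5.54 to 6.97), and 7 of the 38 high cells (18.4%) carried at least 2 UMIs of markers of other cell types, against 12.8% of cells with none. In lymph node that share was 46.4% of high cells and 53.4% of cells with none, and in thymus 9.26% and 9.85%. Without all such cells the ratio for members outside the core was 2.73 (2.52 to 2.96) in thymus, 6.13 (5.16 to 7.25) in lymph node and 4.50 (3.86 to 5.22) in the pooled library. Dendritic markers then had ratios of 1.63 (0.849 to 2.89), 1.40 (0.510 to 3.11) and 1.58 (0.424 to 4.18). The same markers were used to leave cells out, so these ratios cannot show whether dendritic RNA went with the high cells.

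Dividing cells, those with at least 3 UMIs of cycling genes such as Mki67 and Top2a, held less interferon RNA per UMI than the other cells of their library. In lymph node the 34 members summed to 974 (937 to 1012) CPM in 528 dividing cells and 2090.4 (2019 to 2163) in 930 others, and the core to 135 and 391. In thymus the members summed to 1467 (1414 to 1521) CPM in 390 dividing cells and 2303 (2259.8 to 2347) in 2127 others, and the core to 446 and 759.7. The core was thus higher in thymus than in lymph node both among dividing and among other cells. Dividing cells held more RNA in all, with a median of 3752 UMIs against 1470.0 in lymph node and 4646.5 against 2008 in thymus, and its part in the lower share was not tested. The GTPases in lymph node followed, with 162 CPM in dividing cells and 369 in others. Skin Vγ6 had only 24 dividing cells, with 343 CPM of the members against 573 in the other 663.

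Thymus Vγ6 cells were also split by transcripts that mark subsets of them. The 34 members summed to 1704 (1652 to 1756) CPM in 881 cells with a UMI of the scavenger receptor gene Cd163l1, 1870.2 (1822 to 1919) in 935 cells with one of the granzyme gene Gzma and 2483 (2419 to 2549) in 1018 cells with neither, with 317 cells counted in both of the first sets. The core gave 552, 610.0 and 788 CPM. Cells with neither transcript were also the shallowest, with a median of 1871.5 UMIs against 2292 and 2603. In lymph node the 1217 Cd163l1-positive cells had 1310.3 CPM and the 234 cells with neither 2080.3, and in skin Vγ6 the 385 positive cells had 531 and the 302 with neither 593, with overlapping intervals.

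Mean values of 8 Vγ6 clusters in the authors' deposited table, each column of which sums to 10000, were highest for the summed interferon genes in 2 thymus clusters. In the authors' deposited table the members summed to 5.39 in Skin, 27.2 in Thy_1, 15.5 in Thy_2, 33.7 in Thy_3, 19.7 in Thy_4, 12.4 in Thy_5, 21.4 in pLN_1 and 10.9 in pLN_2. By the same deposited table, 15 of the 34 members were highest in Thy_3, beside 10.9% of its 10721 genes, 9 in Thy_1 (9.08% of genes), 5 in pLN_1 (16.1%), 4 in Thy_4 (12.2%) and 1 in Thy_5 (17.3%), and 22 were lowest in Skin, beside 29.2% of genes. Which cells entered each cluster is not given in the sources used here, and means carry no spread, so these values are a description.

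Thy_3 and Thy_1 differed in which members they held. Ifi27l2a averaged 10.0 in Thy_3 and 4.12 in Thy_1 in the authors' deposited table, and Isg15 3.61 in Thy_3, 2.43 in Thy_4, 0.588 in Skin and 0.217 in pLN_2. Ifi203 ran the other way in the authors' deposited table, at 0.730 in Thy_3 and 0.575 in Skin, and 5.32 in pLN_1. The GTPases summed to 4.25 in Thy_1, 3.50 in Thy_3, 3.92 in pLN_1 and 0.496 in Skin in the authors' deposited table. Thy_1 stood above the mean of the 8 columns for 32 members and Thy_3 for 28. The members' median ratio to that mean was 1.58 in Thy_1 and 1.61 in Thy_3. Over all 10721 genes of the authors' deposited table, the median ratio was 1.002 in Thy_1 and 0.865 in Thy_3. In the authors' deposited table of cluster markers, 26 members were listed for Thy_1, all up, and 17 for Thy_3, 16 of them up. For Skin the authors' deposited table listed 25 members, all down, and within lymph node pLN_1 had 5 up and 14 down and pLN_2 had 2 up and 7 down. Of the 10721 genes, the authors' deposited table listed 27.6% up in Thy_1, 10.1% up in Thy_3, 40.0% down in Skin, 10.4% up and 29.8% down in pLN_1, and 36.0% up and 11.7% down in pLN_2.

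**Figure D5:**
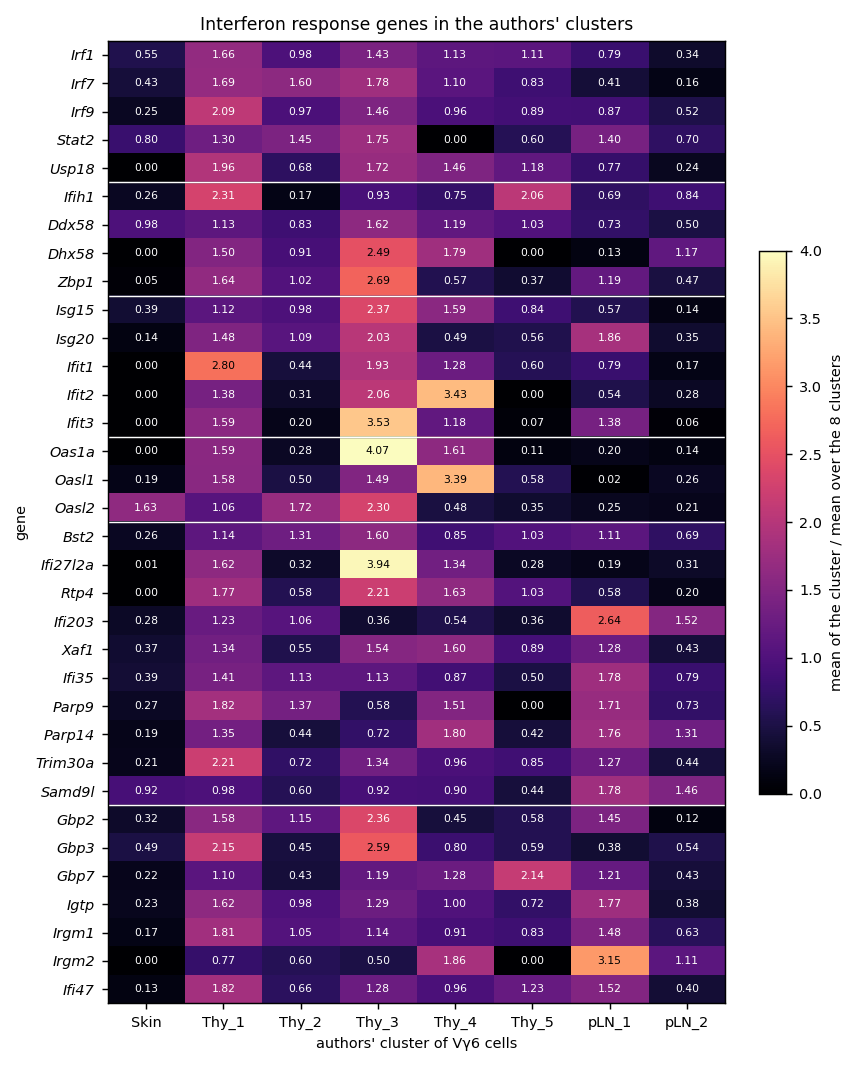
The authors' mean value of each member in each of their 8 Vγ6 clusters, divided by the mean of the 8 columns and coloured on a linear scale, with members grouped by role. Thy_3 is the brightest column for Oas1a (4.07 times the mean), Ifi27l2a and Isg15. Thy_1 is above the mean for 32 of the 34 members, where the median of all 10721 genes is 1.002 times the mean. Skin is the lowest column for 22 members.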

How the data were processed

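The authors deposited raw UMI counts per gene and cell barcode for each library, made from 10x Genomics 3' v2 libraries per the labels' protocols. Cell Ranger 2.0, Seurat 2.3 and the mm10 build are named per the submitters' processing notes, with no role given. The authors also deposited means of 8 cell clusters, each column summing to 10000, and a marker table with a natural log fold change and p-values per the file headers, of which the p-values were not used.

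From the counts, cells with at least 200 genes and at most 10% mitochondrial UMIs were kept and summed per library, and CPM are shares of all UMIs of the kept cells. Intervals are exact at the 95% level (Poisson for a level, conditional binomial for a ratio, Clopper-Pearson for a share) and cover counting error only. Ratios were formed for every gene, and log2 ratios used a pseudocount of 1 CPM, which understates changes of low genes. A gene with 0 UMIs in a library was set to a floor of 3 counts for a bound. For spread over cells, each cell was thinned to 750 UMIs (random seed 1), and an even spread is the binomial expectation. Alternative scalings were TMM factors (edgeR 4.0.16) and median-of-ratios factors (DESeq2 1.42.0), both used for scaling only, in R 4.3.3. The rest ran in Python 3.11.15 with numpy 2.4.6, scipy 1.17.1, pandas 2.3.3 and matplotlib 3.10.9. Ratios and spread measures were tested on simulated data.

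Named in a comparison are up to 12 members with the ratio farthest from 1 by the nearer interval bound among those with at least 20 CPM, all members with no UMI in a library, and up to 10 called pathway genes; members named beyond these to show the exceptions were chosen after their values were seen. Members and lists were chosen with earlier results of these data known. Some choices were made after seeing the data. High cells were set at 3 core UMIs because fewer than 20 cells of any library reached the 5 first set. Also tried, as alternatives only, were a CPM minimum on the mean of both libraries and leaving out cells with Cd79b, Lyz2 or Siglech. The main results keep those cells. No doublet caller was run; leaving out the 5% of cells with the most UMIs stands in for it. Gene positions come from GENCODE M21 (GRCm38) and start regions from RefSeq (GRCm38.p6). Mx2, Ifi206, Ifi208, Oas1b, Ighm, Igkc and Pclaf of the wider lists were not analysed here. Some genes of the wider lists are not reported here, though they count in list totals.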

Additional observations from a re-analysis of the deposited data

Results flagged for a closer look

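The pooled Vγ6 library enters no comparison, since its cells cannot be assigned to a tissue, yet it carried interferon response RNA well above the level that 3 counts allow (1.01 CPM). Its 12 core genes summed to 385 CPM, beside 667 CPM in thymus, 230.1 in lymph node and 158 in skin Vγ6 cells. Its mice were of other strains than the C57BL/6 mice of the other libraries and aged 8 to 10 weeks, and the part of strain, age and tissue mix in this level was not tested.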

How the results depend on the processing

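Counts of calls were recomputed under 13 alternatives and median ratios under 9. In skin over lymph node Vγ6 cells, where 1 member was called higher and 13 lower, 2 were higher under the stricter cell filter (at least 500 genes and at most 5% mitochondrial UMIs), TMM scaling, median-of-ratios scaling or calls at 1.5-fold, and 0 with a minimum of 50 CPM or, an alternative chosen after seeing the data, with the minimum set on the mean of both libraries. The count of lower members was 7 under the stricter filter, 5 with a minimum of 50 CPM and 8 with the minimum on the mean. The median log2 ratio ran from -1.94 to -1.29. In thymus over lymph node, where 8 were called higher and 0 lower, 2 were lower (Ifi203 and Samd9l) with the mean over cells, after thinning, without cells that carry markers of other cell types, without dividing cells or at 1.5-fold, and 1 without the cells of most UMIs or with a minimum of 5 CPM; 6 to 12 were higher and the median ran from 0.31 to 0.94. In skin over thymus Vγ6 cells 14 to 26 were lower and 0 higher throughout, with medians from -2.34 to -1.69. In skin Vγ4 over Vγ6 cells the median log2 ratio of -0.11 reversed to 0.44 under the stricter filter and 0.020 without the cells of most UMIs. The count of 1 lower call, which under the stricter filter was not Irf7, became 0 under TMM scaling, with the mean over cells, after thinning, without cells that carry other markers and at 50 CPM, and 2 without dividing cells and at 1.5-fold, where 1 was higher. The cause of these shifts was not tested.

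Without its most abundant member the sum was 428 CPM in skin Vγ4, 437 in skin Vγ6, 1753 in thymus, 1059 in lymph node and 1263 in the pooled cells, and under the stricter filter 1905 in thymus and 1565 in the pooled cells. The share of UMIs in the top 5% of cells was 33.3%, 31.1%, 21.6%, 26.3% and 31.0% for all members in skin Vγ4, skin Vγ6, thymus, lymph node and pooled cells. For the core alone it was 54.2% in skin Vγ4, 52.6% in skin Vγ6, 56.0% in lymph node and 52.6% in the pooled cells, and for the GTPases alone 100.0%, 100.0%, 40.3%, 41.2% and 50.2% in the 5 libraries in that order. Only 38 skin Vγ4 and 18 skin Vγ6 cells held a GTPase UMI, fewer than the 58 and 30 cells of the top 5%. The 100.0% in skin was therefore fixed in advance. For the core, an even spread gives 46.8% in skin Vγ4 and 44.8% in skin Vγ6. For the GTPases it gives 31.6% in thymus, 32.6% in lymph node and 35.8% in the pooled cells. Dispersion, 1.79, 1.47, 2.13, 2.51 and 2.81 for all members, was 1.11, 2.47, 1.28, 1.41 and 1.42 for the GTPases alone. At 1500 UMIs per cell it was 3.33 in thymus, 4.83 in lymph node and 4.34 in the pooled cells, and without thinning 4.83, 7.24 and 4.31.

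Of the ratios of named members, 317 kept their side of the calling rule, 22 lost the call and 12 gained it, and none changed sign. No paired analysis was possible because each group was 1 library. With 1 library per group, a difference between animals, batches or preparations cannot be told apart from one between tissues. At this depth 3 UMIs equal 3.78 CPM in skin Vγ6 and 0.454 CPM in thymus, so members absent from skin may have been present below that level.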

Other observations

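The 67 other interferon-induced genes did not follow the order of the members across libraries. They summed to 2038 CPM in skin Vγ4, 2091 in skin Vγ6, 4482 in thymus, 4683 in lymph node and 5548 in the pooled cells, so that thymus was not above lymph node. In the authors' deposited table, 58 of them summed to 82.2 in Thy_4, the highest of the 8 clusters, beside 60.8 in pLN_1, 50.8 in Thy_3, 43.2 in Thy_1 and 20.98 in Skin. The 34 members were highest in Thy_3.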
